A study of Arabidopsis thaliana with 114 samples.

Results

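The genes described here encode proteins of the large (60S) subunit of the cytosolic ribosome of Arabidopsis thaliana, namely the listed genes of the families RPL3 to RPL26. They were chosen by a list of locus identifiers (AGI identifiers), 48 of the 28712 genes counted, and fall into 21 families, of which 18 have more than 1 listed gene. The rule uses no measured value. Their messenger RNA was measured by sequencing in shoots and roots of seedlings raised in trays on 1 mM KNO3 and 1% sucrose. The labels name no genotype, accession or plant age. Seedlings were then given N, which is 20 mM KNO3 with 20 mM NH4NO3 (60 mM nitrogen), or 20 mM KCl as the control. Each organ was sampled before supply (time 0) and at 9 later times of 5 to 120 min, with 3 libraries per group and 57 libraries per organ. The labels give the times without a unit, and they are read here as minutes. A treatment tag is given only for part of the shoot samples, and the other groups rest on the letter code of the titles. For 1 root library of time 0 the source label names the shoot, while its title and organ tag give the root, and it was used as root. N and KCl also differ in ammonium, in chloride and in total salt, so effects of these cannot be told apart. Each library holds RNA of a whole organ, and more cells of one kind or more RNA per cell cannot be told apart in it.

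In the cell, the large subunit joins amino acids into protein, and its proteins hold the ribosomal RNA in shape around the reaction centre and the tunnel through which the new chain leaves. In eukaryotes the genes of ribosomal proteins are known to be expressed together with one another and with the genes that assemble ribosomes, in growing tissue above all. In Arabidopsis each protein is encoded by a small family of paralogs, and mutants of single paralogs often have narrow or pointed leaves or die as embryos. Letters of paralogs are given here where the reference annotation holds them as a symbol or synonym (RPL3A, RPL5A, RPL10B and so on). Other genes are named by family and identifier.

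Sites of a few letters occur in the promoters of many ribosomal protein genes of plants, among them the telo-box, searched here as AAACCCTA, and site II elements, searched as TGGGCC and TGGGCT. Both strands were searched over 300 bases, from 250 before to 50 after the annotated start of each gene, in the TAIR10.1 assembly of RefSeq. TGGGCC and its reverse complement overlap where the letters read TGGGCCCA. The telo-box was found in 24 of the 48 promoters (50%) and in 6.22% of the promoters of 27443 protein-coding genes. TGGGCC was found in 72.9% against 15.5%, and TGGGCT in 68.8% against 14.2%. Of the 48 promoters, 42 (87.5%) held TGGGCC or TGGGCT, against 21.7% of all, and 21 (43.8%) held one of these with the telo-box, against 2.2% of all. Of the promoters of small-subunit genes 48% held the telo-box and 68% TGGGCC or TGGGCT, and of those for the large subunit of the plastid ribosome 14.3% and 28.6%. The 250 bases before the start of 6 genes are shown, 5′ to 3′ on the coding strand, with the searched letters of either strand in capitals. They are the promoters of genes that the results below turn on, and of the RPL6 gene AT1G74050, 1 of 3 members with none of the searched letters (the others are RPL7 AT3G13580 and RPL23aA).
RPL5A AT3G25520 (chr3:9271466-9271715, minus strand): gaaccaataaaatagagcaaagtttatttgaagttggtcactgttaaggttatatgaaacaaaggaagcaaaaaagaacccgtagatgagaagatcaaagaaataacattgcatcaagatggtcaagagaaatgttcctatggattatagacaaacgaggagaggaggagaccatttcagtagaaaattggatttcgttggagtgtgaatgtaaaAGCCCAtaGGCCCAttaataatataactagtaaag
RPL14 AT2G20450 (chr2:8813582-8813831, plus strand): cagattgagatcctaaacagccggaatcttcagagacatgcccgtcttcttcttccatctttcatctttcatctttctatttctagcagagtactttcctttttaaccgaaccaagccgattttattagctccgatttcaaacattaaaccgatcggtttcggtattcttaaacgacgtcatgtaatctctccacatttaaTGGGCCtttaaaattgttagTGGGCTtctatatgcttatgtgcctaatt
RPL8 AT4G36130 (chr4:17097155-17097404, plus strand): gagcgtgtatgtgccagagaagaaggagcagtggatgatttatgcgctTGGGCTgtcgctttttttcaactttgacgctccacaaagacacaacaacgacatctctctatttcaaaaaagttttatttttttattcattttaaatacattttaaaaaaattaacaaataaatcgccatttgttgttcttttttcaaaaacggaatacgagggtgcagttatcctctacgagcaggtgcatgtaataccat
RPL12 AT5G60670 (chr5:24381600-24381849, minus strand): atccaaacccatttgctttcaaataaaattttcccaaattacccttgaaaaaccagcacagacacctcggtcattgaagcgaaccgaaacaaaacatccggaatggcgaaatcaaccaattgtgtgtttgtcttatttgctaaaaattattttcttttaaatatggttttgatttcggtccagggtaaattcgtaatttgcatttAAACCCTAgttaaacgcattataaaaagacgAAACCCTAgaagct
RPL3B AT1G61580 (chr1:22723153-22723402, minus strand): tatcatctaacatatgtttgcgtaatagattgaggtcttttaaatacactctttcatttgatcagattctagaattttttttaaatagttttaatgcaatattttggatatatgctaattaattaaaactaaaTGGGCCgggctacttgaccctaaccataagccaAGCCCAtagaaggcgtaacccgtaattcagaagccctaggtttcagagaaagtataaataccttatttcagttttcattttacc
RPL6 AT1G74050 (chr1:27849009-27849258, minus strand): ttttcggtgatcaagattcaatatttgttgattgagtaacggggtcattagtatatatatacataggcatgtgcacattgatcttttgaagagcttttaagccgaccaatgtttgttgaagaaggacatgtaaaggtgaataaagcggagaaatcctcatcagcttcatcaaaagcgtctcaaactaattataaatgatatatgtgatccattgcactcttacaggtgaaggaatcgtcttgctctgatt
In RPL5A and in RPL14 AT2G20450 the capitals lie within 49 bases of the start, and in RPL8 AT4G36130 the one match starts 202 bases before it. RPL5A and RPL14 AT2G20450 also hold a telo-box in the 50 searched bases after the start, which are not printed. RPL5A holds further TGGGCT matches there or across the start. A match describes letters in the window and is no evidence that a factor binds there.

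Library depth was 5710272 to 43570824 gene counts in 56 shoot libraries and 13878732 to 143269564 in 57 root libraries. KCl replicate 2 of the shoot at 90 min, with 1302 counts, was left out, so n = 2 there. Levels are CPM, read counts relative to the library size after TMM scaling. Where levels of shoot and root at time 0 are set side by side, both organs were scaled together. All other levels were scaled within the organ, so values of the same library differ somewhat between the 2 scalings. Shoot and root files treat reads that align to several places differently, so organ and processing coincide. At time 0 the organ labels matched the markers, since 7 of 7 shoot markers were called higher in the shoot and 8 of 8 root markers tested lower there. The root libraries of 10 and 15 min stood apart in both treatments, with TMM factors of 0.633 to 0.825 against 0.993 to 1.17 in the other root libraries. Of the 48 genes, RPL8 AT3G51190 was near absent (0.205 ± 0.0758 CPM in the root and 0.035 ± 0.0317 CPM in the shoot at time 0, SD, n = 3) and was not tested in the shoot, which leaves 47 members there. RPL9 AT1G33120 and RPL9 AT1G33140 (PGY2) share 99.1% of their coding bases and 53.4% and 54.2% of their stretches of 50 bases, so the split of reads between them is uncertain. For the other members the shared stretches came to at most 4.81%.

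**Figure D1:**
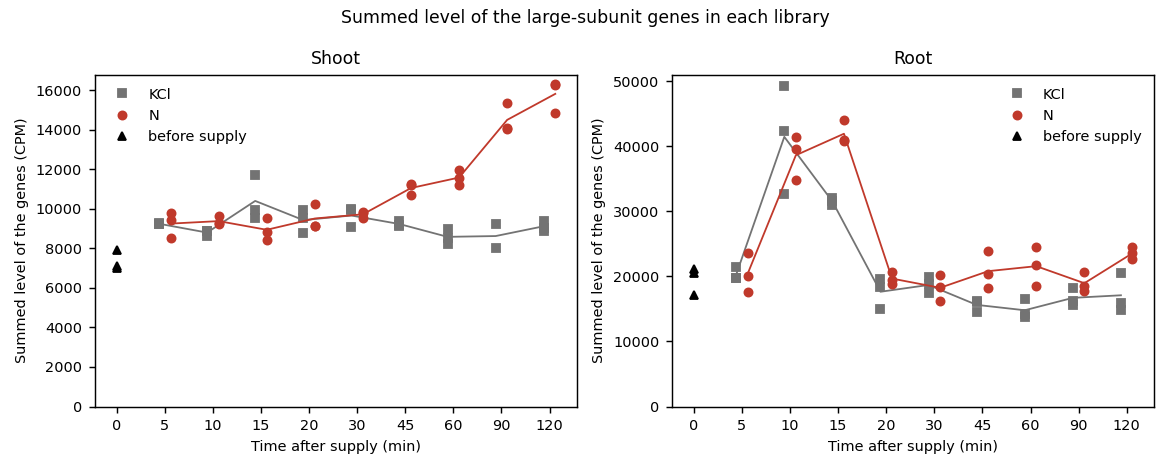
Summed level of the 48 genes in each library (CPM, vertical axis) by time after supply (min, horizontal axis, evenly spaced) in shoot and root. Squares are KCl, circles N, triangles time 0, and lines join the means. In the shoot the N libraries of 120 min lie at 14860 to 16318 CPM and the KCl libraries at 8898 to 9403 CPM, and in the root both treatments lie at 30943 to 49266 CPM at 10 and 15 min.

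In the shoot, N raised the mRNA of the whole set, with members first called higher at 45 min and all members tested at 90 and 120 min. The summed level of the genes was 7340 ± 482 CPM at time 0 and 9114 ± 260 CPM in KCl at 120 min, and 15806 ± 820 CPM in N at 120 min (SD, n = 3 each). The lowest N library at 120 min (14860 CPM) lay above the highest KCl library of any time (11708 CPM). The members rose to different degrees, from log2 0.35 for RPL14 AT4G27090 to 1.68 for RPL3B (AT1G61580), and the median was 0.816. Over all genes tested the median log2 change at 120 min was -0.0291.

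Members that passed the test (edgeR's quasi-likelihood test, Benjamini-Hochberg adjusted p under 0.05 over all genes tested) are called higher or lower here. Over all 9 times, all 47 members tested in the shoot were called (47.4% of all 20899 genes tested). No member was called by edgeR at 5 min, where 0.0574% of all genes were, at 10 min (0.89%), at 20 min (3.11%) or at 30 min (6.72%). DESeq2 called none at these times either, and at an unadjusted p under 0.05 there were 3 higher and 1 lower at 5 min, 2 higher at 10 min, 2 higher and 1 lower at 20 min and 1 higher at 30 min. At 10 min 44 of 47 changes were positive, with a median of 0.106, and in 24 of 47 members all N libraries lay above all KCl libraries. At 15 min RPL7 AT2G44120 alone was called lower (0.234% of all genes), and 46 of 47 members had a negative change, with a median of -0.205. The highest summed level of the 15 min libraries was that of KCl replicate 1, which has the lowest depth of the libraries kept, and without it no member was called and the median was -0.122. All 7 shoot markers also had a negative change at 15 min (median -0.723, none called), and their part in the result was not tested. At 45 min 33 of 47 members were called higher (12.3% of all genes), and 42 were at 60 min (13.7%). All 47 were called higher at 90 min (18.8%) and again at 120 min (19.1%), with none lower at any of these times. The median log2 change of the members was 0.302, 0.432, 0.758 and 0.816 at these 4 times. The 33 called at 45 min were all among those called at 120 min. Without replicate 3 in all groups 10 members were called at 45 min, and 15 without replicate 2. The share of reads in no gene moved at the same times. It was lower in N than in KCl up to 30 min (1.90% and 3.81% at 30 min, means). From 45 min on, where members were first called higher, it was higher in N. The means in N and KCl were 3.47% and 3.075% at 45 min, 3.98% and 2.925% at 90 min and 3.40% and 2.99% at 120 min. The part of this share in the result was not tested. The summed level of the shoot markers at 120 min was 5848 to 8943 CPM in KCl and 4629 to 6923 CPM in N, with 1 of 7 called lower, and that of the root markers 37.0 to 39.9 CPM and 41.9 to 51.8 CPM, with 1 of 7 tested called higher. Their part was not tested. The increase from 30 to 120 min was itself called in 46 of 47 members (10.3% of all genes), with a median of 0.786 on the log2 scale.

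**Figure D2:**
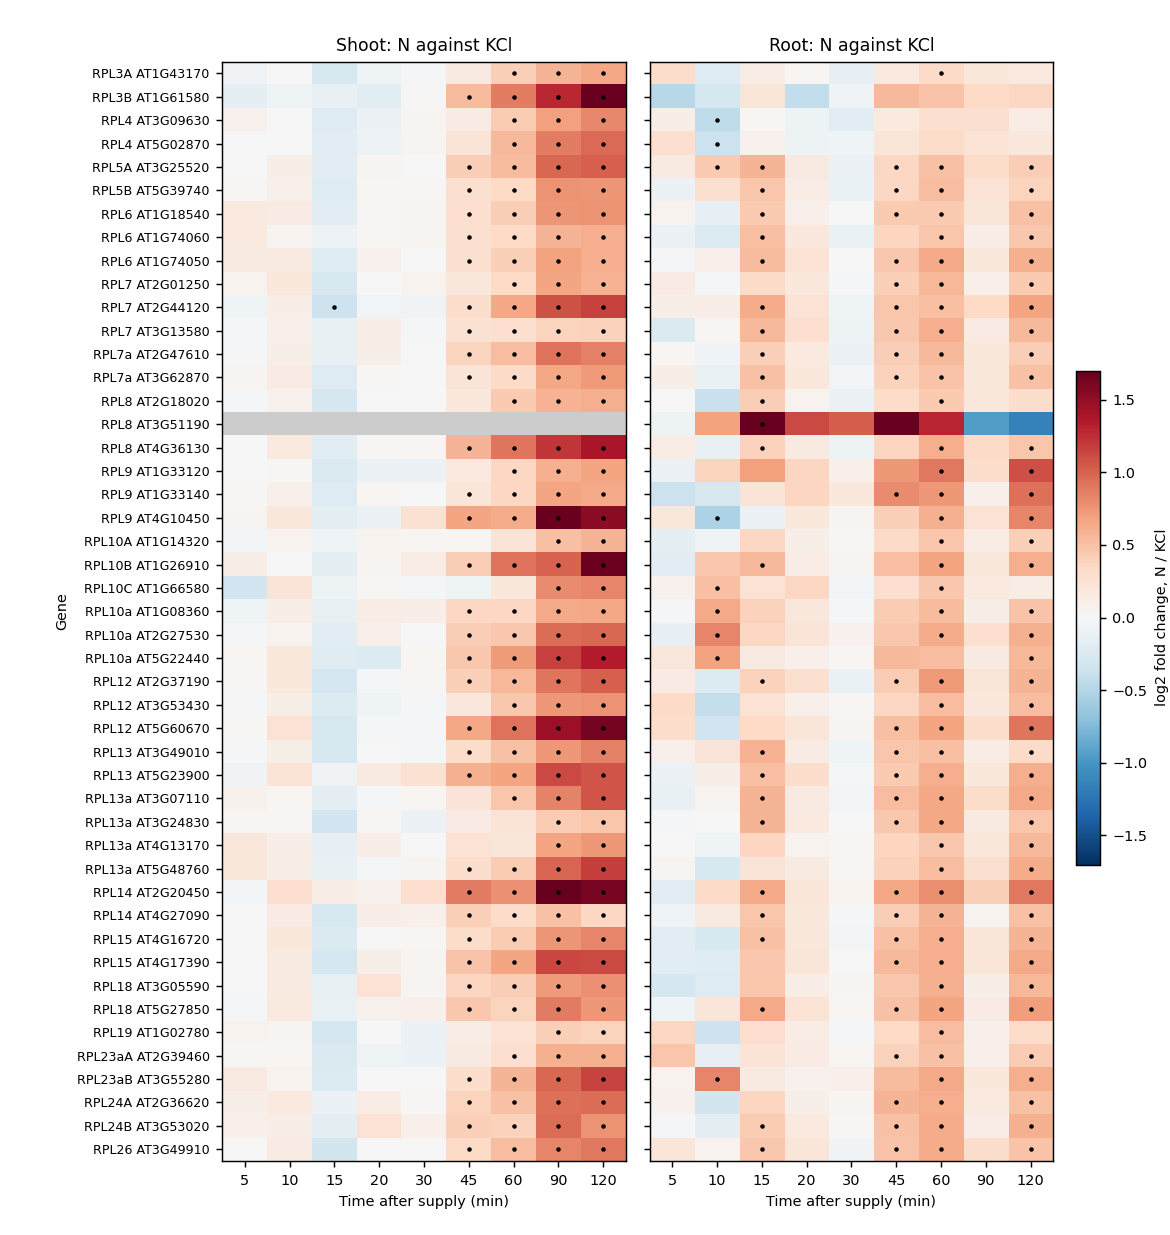
Log2 fold change of N against KCl for 47 of the 48 genes (rows, by family) at each time (columns, min) in shoot and root. Dots mark calls at an adjusted p under 0.05, colours are limited to 1.7 in either direction, and grey marks a gene not tested. The shoot columns turn red from 45 min, while the root columns are red at 15, 45, 60 and 120 min and pale at 20, 30 and 90 min.

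Of the proteins around the reaction centre, RPL8 (known as uL2 in other species) binds close to the site of peptide bond formation in yeast. RPL8 AT4G36130 had the smallest p over all times in the shoot. Its level at 120 min was 159.5, 151.7 and 170.7 CPM in KCl and 425, 437.5 and 398 CPM in N. All N libraries lay above all KCl libraries, and the change was log2 1.39 (SE 0.0909, adjusted p = 2.04e-16). RPL8 AT2G18020 (EMB2296), of which mutants arrest as embryos, rose less, by log2 0.62 (SE 0.103, adjusted p = 4.42e-06). The share of AT4G36130 in the RPL8 family, per length of coding sequence, was 19.7% ± 0.302 in KCl and 29.6% ± 0.927 in N at 120 min (SD, n = 3). RPL3, which reaches toward the reaction centre, and RPL4, which lines the exit tunnel, are both encoded by 2 listed genes. RPL3B (AT1G61580) was at 24.3, 18.1 and 19.5 CPM in KCl and at 73.7, 57.5 and 67.3 CPM in N (log2 1.68, SE 0.147, adjusted p = 1.03e-12). Its partner RPL3A (AT1G43170) rose by log2 0.66 (SE 0.0938, adjusted p = 1.88e-07), and the groups of RPL3B did not overlap. RPL4 AT5G02870 and RPL4 AT3G09630 rose by log2 0.96 (SE 0.113) and 0.82 (SE 0.119), to 930 to 1007 CPM and 928 to 987 CPM in N.

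**Figure D3:**
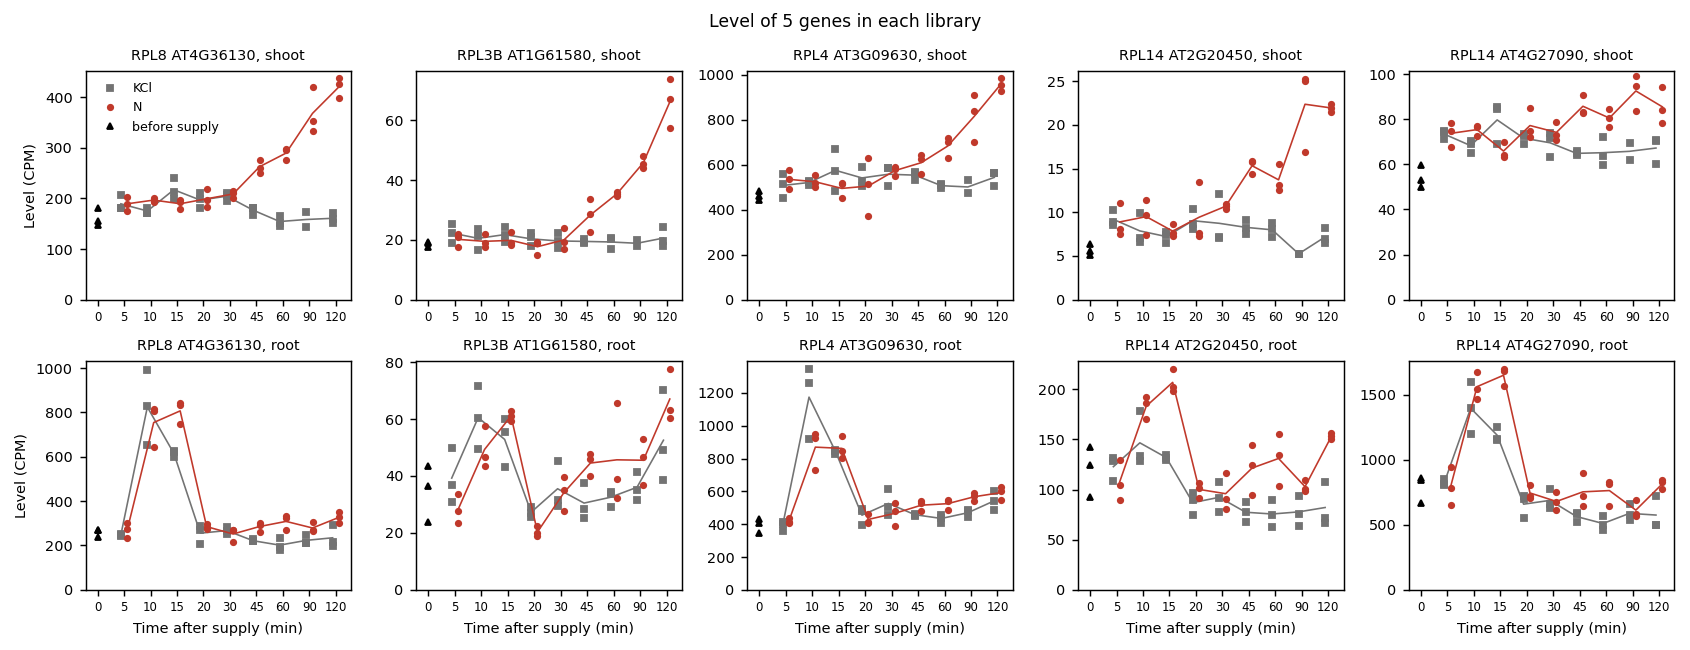
Level (CPM) of 5 genes in each library by time after supply (min, evenly spaced), shoot above and root below, with KCl as squares, N as circles, time 0 as triangles and lines through the means. In the shoot RPL8 AT4G36130 and RPL3B climb from 45 min to 120 min, and RPL14 AT4G27090 changes least. In the root RPL8 AT4G36130 and RPL4 AT3G09630 are highest at 10 and 15 min in both treatments.

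RPL10, which joins the subunit late in assembly, and RPL5, which carries the 5S ribosomal RNA in yeast and animals, both rose in the shoot. RPL10B (AT1G26910) was at 11.4, 12.3 and 12.5 CPM in KCl and at 37.3, 40.5 and 36.8 CPM in N at 120 min (log2 1.66, SE 0.133, adjusted p = 9.35e-14). The N libraries were thus all above the KCl libraries. RPL10A (AT1G14320), the more highly expressed member also named SAC52, rose by log2 0.58 (SE 0.0873, adjusted p = 7.22e-07), and RPL10C (AT1G66580) by 0.83 (SE 0.152, adjusted p = 2.01e-05). RPL5A (AT3G25520) rose by log2 1.01 (SE 0.0944) from 185 to 207 CPM in KCl to 364 to 419 CPM in N, and RPL5B (AT5G39740) by 0.75 (SE 0.0798). Mutants of RPL5A (PGY3), RPL9 AT1G33140 (PGY2) and RPL10a AT2G27530 (PGY1) are known for altered leaf shape.

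The stalks of the subunit, where translation factors and transfer RNA dock, contain RPL12 and RPL10a. RPL12 AT5G60670 was at 69.1, 72.6 and 72.9 CPM in KCl and at 223, 243 and 196 CPM in N at 120 min (log2 1.62, SE 0.132, adjusted p = 1.27e-13). Its paralogs RPL12 AT2G37190 and RPL12 AT3G53430 rose by log2 1.02 (SE 0.103) and 0.76 (SE 0.0848). Per length of coding sequence AT5G60670 was the lowest of the 3 in the shoot before supply and AT3G53430 the highest, the reverse of the order of their changes. RPL10a AT5G22440 rose by log2 1.33 (SE 0.114), RPL10a AT2G27530 by 0.98 (SE 0.0869) and RPL10a AT1G08360 by 0.66 (SE 0.0736). At the tunnel exit, RPL23aB (AT3G55280) was at 75.0, 77.9 and 78.2 CPM in KCl and at 171, 182 and 159 CPM in N, and this change (log2 1.15, SE 0.0818, adjusted p = 3.03e-15) was larger than that of RPL23aA (AT2G39460; 0.60, SE 0.076, adjusted p = 1.49e-08).

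RPL13, RPL13a and RPL7 bind the ribosomal RNA of the large subunit. RPL13a AT5G48760 was at 44.3, 47.4 and 48.7 CPM in KCl and at 113, 108 and 95.7 CPM in N (log2 1.18, SE 0.0847, adjusted p = 3.98e-15). The other 3 RPL13a genes rose by log2 1.06 (AT3G07110, SE 0.0867), 0.73 (AT4G13170, SE 0.104) and 0.47 (AT3G24830, SE 0.0963). RPL7 AT2G44120 was at 75.3, 75.9 and 92.0 CPM in KCl and at 190.0, 194 and 162 CPM in N (log2 1.17, SE 0.0951, adjusted p = 1.47e-13). RPL7 AT2G01250 and RPL7 AT3G13580 rose by 0.59 (SE 0.0887) and 0.39 (SE 0.0968). RPL13 AT5G23900 was at 64.9, 59.7 and 63.7 CPM in KCl and at 135, 134 and 128 CPM in N (log2 1.08, SE 0.101), and RPL13 AT3G49010 (BBC1) rose by 0.85 (SE 0.0866). In each of these genes the lowest N library was above the highest KCl library.

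The remaining families rose as well at 120 min in the shoot. RPL9 AT4G10450 was at 29.1, 34.3 and 29.5 CPM in KCl and at 96.8, 80.3 and 89.3 CPM in N (log2 1.52, SE 0.15, adjusted p = 3.45e-11), while the near-identical pair AT1G33120 and AT1G33140 had log2 0.67 and 0.65. RPL15 AT4G17390 rose by log2 1.13 (SE 0.112) and RPL15 AT4G16720 by 0.82 (SE 0.0807). RPL24, at a bridge to the small subunit, rose by log2 0.96 (RPL24A, AT2G36620, SE 0.102) and 0.77 (RPL24B, AT3G53020, SE 0.103). The latter, also named STV1, is known in Arabidopsis for the shape of the gynoecium. RPL26 AT3G49910 rose by 0.90 (SE 0.0966), the RPL7a genes AT2G47610 and AT3G62870 by 0.85 and 0.73, and the RPL6 genes AT1G18540, AT1G74050 and AT1G74060 by 0.76, 0.62 and 0.62. The RPL18 genes AT3G05590 and AT5G27850 rose by 0.77 and 0.74. RPL19 AT1G02780, of which mutants arrest as embryos, had the smallest change but one, log2 0.38 (SE 0.103, adjusted p = 0.00337).

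Across the 47 members tested in the shoot, those that were lowly expressed before supply changed more. The level at time 0 per length of coding sequence and the log2 change at 120 min correlated with Spearman's rho -0.492 and, on the log2 level, Pearson's r -0.66. These are descriptions over genes that share libraries and scaling. In 15 of 18 families with more than 1 gene, the gene with the lowest level at time 0 had the largest log2 change at 120 min. Among the 15, RPL7 rests on near-equal levels of AT2G44120 and AT3G13580 (94.5 and 94.8 CPM per kb), with changes of log2 1.17 and 0.39. In the root the same correlation was rho 0.0892 at 60 min and -0.192 at 120 min. There the gene of lowest level changed most in 10 and 11 of 18 families. The families are small, so some meet this by accident, and no expected number was computed. The difference between the organs in these measures was not tested. RPL14 is the clearest pair in the shoot, with log2 1.61 (SE 0.196) for AT2G20450, from 6.95, 8.16 and 6.43 CPM in KCl to 21.9, 21.5 and 22.4 CPM in N, and 0.35 (SE 0.0897) for AT4G27090, from 70.5, 60.3 and 70.9 CPM to 94.2, 84.2 and 78.1 CPM. The share of AT2G20450 in the pair was 9.74% ± 1.92 in KCl and 20.5% ± 1.71 in N (SD, n = 3).

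**Figure D4:**
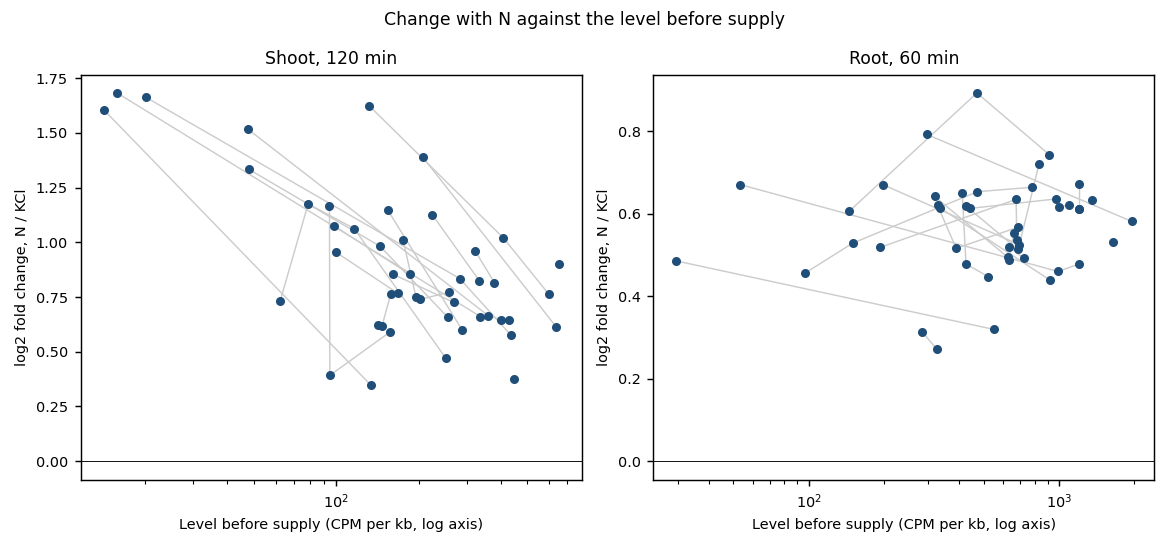
Log2 fold change of N against KCl against the level before supply (CPM per kb of coding length, log axis) for 47 genes (RPL8 AT3G51190 is left out), in the shoot at 120 min and the root at 60 min. Points are genes and grey lines join paralogs of one family. In the shoot the points fall from upper left to lower right (Spearman's rho -0.492), and in the root at 60 min rho was 0.0892.

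In the root, N raised most of the members as well, at 15, 45, 60 and 120 min. Over all 9 times, all 48 were called (61% of all 22185 genes tested). Of 48 members tested, 43 were called higher at 60 min (14.5% of all genes) and 40 at 120 min (18.6%), with medians of log2 0.594 and 0.513. At 60 min the summed level was 21581 ± 2999 CPM in N and 14803 ± 1456 CPM in KCl, and at 120 min 23566 ± 872 CPM and 17104 ± 3036 CPM (SD, n = 3 each). Of the 43 members called at 60 min, 39 were called at 120 min, which is 90.7% of the first and 97.5% of the second list. At 45 min 26 were called higher (7.78% of all genes), and at 15 min 25 (8.26%), while edgeR called none at 5 min (1.97%), 20 min (3.76%), 30 min (5.51%) or 90 min (16.6%). At an unadjusted p under 0.05 there were 5 higher and 1 lower at 5 min, 1 higher at 20 min, 0 at 30 min and 7 higher at 90 min, and DESeq2 called 1, 0, 0 and 1. At 90 min 47 of 48 changes were positive, with a median of 0.186. The increase from 30 to 120 min was called in 15 members (5.29% of all genes), and in 0 to 2 of them without any 1 replicate. Several root counts rest on single replicates or libraries. Without replicate 1, 2 or 3 in all groups, 42, 27 and 3 of the 43 members called at 60 min were called again. Of the 40 at 120 min, 14, 16 and 40 were. Of the 26 at 45 min, 5 were called again without replicate 1 and 2 without replicate 3, and all 26 were lost without replicate 2. Counts with 1 library left out follow. At 60 min 21 members were called without N replicate 3, and at 120 min 20 without KCl replicate 2. At 45 min 2 were called without KCl replicate 1, 11 without KCl replicate 2, 1 without N replicate 2 and 16 without N replicate 3. The mean share of reads at several places was 19.0% in KCl and 8.95% in N at 60 min, and 28 members were called there with the libraries over 30% left out. The shoot markers in the root at 60 min summed to 74.7 to 238 CPM in KCl and 55.7 to 120 CPM in N, with 2 of 7 called lower, and the root markers to 245 to 309 CPM and 219 to 304 CPM, with 1 of 8 tested called higher. At 15 min 11 members were called without the libraries with over 30% of reads at several places (KCl replicate 2 and N replicate 2 at that time), 17 without KCl replicate 2 and 17 without N replicate 2. The shoot markers all had a positive change at 15 min (median log2 1.19, 1 of 7 called higher), and 2 of 8 root markers were called lower (median -0.79). At 45 and 120 min all 7 shoot markers had a negative change, with medians of -0.631 and -0.639, and none was called. Of the 8 root markers 1 was called higher at 45 min, and 2 higher and 2 lower at 120 min. The part of these in the result was not tested.

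RPL6 AT1G74050 had one of the smallest p-values over all times in the root. At 60 min it was at 223, 195 and 185 CPM in KCl and at 277, 331 and 339 CPM in N (log2 0.65, SE 0.128, adjusted p = 0.000181). At 120 min it was at 199.5, 188 and 258 CPM in KCl and at 318, 341 and 321 CPM in N. The N libraries lay above the KCl libraries at both times. RPL14 AT2G20450 was at 89.2, 74.6 and 63.0 CPM in KCl and at 103, 134 and 155 CPM in N at 60 min (log2 0.79, SE 0.179, adjusted p = 0.000969), and RPL13a AT3G07110 at 238, 192 and 187 CPM and 281, 337 and 353.5 CPM (log2 0.65, SE 0.145, adjusted p = 0.000783). RPL5A (AT3G25520) rose from 617, 522 and 573.5 CPM to 753, 864.5 and 789.9 CPM (log2 0.49, SE 0.114, adjusted p = 0.00127). RPL13 AT3G49010 rose from 447, 384 and 383 CPM to 509.9, 565 and 658 CPM (log2 0.51, SE 0.121, adjusted p = 0.00149), and RPL7 AT2G44120 from 264.5, 214 and 195 CPM to 282, 317 and 365 CPM (log2 0.52, SE 0.143, adjusted p = 0.00626). In KCl at 120 min, replicate 3 was the highest library for each of these 6 genes, for example at 786 CPM against 606 and 651 CPM for RPL5A.

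RPL3B and both RPL4 genes were the 3 members that were not called higher in the root at any single time. RPL3B (AT1G61580) had log2 0.49 (SE 0.222, adjusted p = 0.0972) at 60 min and 0.35 (SE 0.218, adjusted p = 0.209) at 120 min. RPL4 AT3G09630 was at 439, 408 and 458 CPM in KCl and at 484, 549 and 543 CPM in N at 60 min (log2 0.27, SE 0.123, adjusted p = 0.0939), and at 120 min the groups overlapped (log2 0.13, SE 0.123, adjusted p = 0.442). RPL4 AT5G02870 had log2 0.31 (SE 0.129, adjusted p = 0.0661) at 60 min and 0.18 (SE 0.129, adjusted p = 0.274) at 120 min. RPL3A (AT1G43170) passed at 60 min with log2 0.32 (SE 0.116, adjusted p = 0.0365) and not at 120 min (0.17, SE 0.116, adjusted p = 0.253). These are also the genes that were called higher in KCl at 120 min than at time 0, as described below for the control. The names of this group were chosen after their values were seen. The same KCl libraries of 120 min enter this rise and the change with N at 120 min, with opposite sign. High levels there give a larger rise in KCl and a smaller change with N, so these results are not independent.

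After TMM scaling, the root libraries of 10 and 15 min stood higher in most members, in KCl and in N alike. Their summed level was 30943 to 49266 CPM, against 13767 to 24471 CPM in the other 45 root libraries. Without that scaling the groups overlapped, as the members took 2.28% to 3.33% of the gene counts in these 12 libraries and 1.498% to 2.57% in the other 45. The mean share was 2.27% at time 0, 2.97% and 2.42% in KCl at 10 and 15 min, and 3.07% and 3.27% in N. In KCl at 10 min, 38 of 47 members lay above their mean of time 0 (RPL8 AT3G51190 left out), with a median ratio of 1.95, and 9 lay below it. RPL8 AT2G18020 stood at 4.38 times its level of time 0 and RPL24A (AT2G36620) at 3.66 times. The 9 below were the 3 RPL9 genes, the 3 RPL10a genes, RPL10B, RPL10C and RPL23aB, with RPL23aB at 0.163 and RPL10a AT5G22440 at 0.169 times. RPL10A stood at 1.93 times and RPL23aA at 1.26 times, so paralogs of these families moved apart. These ratios are of scaled levels, were chosen after the values were seen and have no test.

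Between N and KCl at 10 min, 6 members were called higher (8.02% of all genes) and 3 lower (9.41%). The 6 were the 3 RPL10a genes, RPL10C, RPL23aB and RPL5A, with log2 0.45 (RPL5A, AT3G25520, SE 0.114) to 0.84 (RPL23aB, AT3G55280, SE 0.22), and 5 of them are named above as low in KCl at this time. The same KCl libraries enter both, so low levels there and calls higher in N are not independent. The 3 lower were both RPL4 genes (AT3G09630, -0.43, SE 0.123, and AT5G02870, -0.37, SE 0.129) and RPL9 AT4G10450 (-0.54, SE 0.172). No member was called at 10 min without replicate 1 or when the fit held no other time points, and 16 were without replicate 2. At 15 min RPL5A had the smallest p of the members, with log2 0.58 (SE 0.114, adjusted p = 0.000203).

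Between the organs, the change with N differed in 44 of 48 members over all 9 times (36% of all 22757 genes tested). That test has no direction of its own, and without the root libraries of 10 and 15 min it called 30. It called 9 without replicate 3 in all groups and 12 without replicate 1. The 48 include RPL8 AT3G51190, which is near absent and was not tested in the shoot alone. At 120 min 15 members were called, all with a larger change in the shoot (9.43% of all genes), and 43 of 48 differences were positive, with a median of log2 0.391. RPL3B (AT1G61580) differed by 1.33 (SE 0.275, adjusted p = 0.000206), RPL10B (AT1G26910) by 1.04 (SE 0.237, adjusted p = 0.000799), RPL8 AT4G36130 by 0.91 (SE 0.16, adjusted p = 1.23e-05) and RPL12 AT5G60670 by 0.71 (SE 0.217, adjusted p = 0.0147). Both RPL4 genes were among the 15, with 0.78 (AT5G02870, SE 0.171) and 0.69 (AT3G09630, SE 0.17), as was RPL5A (AT3G25520, 0.59, SE 0.147). Without replicate 3 in all groups 3 of the members were called, and 5 without replicate 1.

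Before supply, nearly all members were higher in the root than in the shoot. At time 0, 46 of 48 were called lower in the shoot (43.4% of all genes), with a median of log2 -1.75 where that of all genes was -0.157, and none was higher. The 46 include RPL8 AT3G51190, near absent in both organs and not tested in the shoot alone, which entered this test through its root libraries. With RLE size factors 45 were called lower. RPL14 AT4G27090 was at 47.4, 50.8 and 56.9 CPM in the shoot and at 681, 890 and 895 CPM in the root (log2 -3.99, SE 0.136, adjusted p = 2.2e-41). RPL14 AT2G20450 was at 4.88 to 6.08 CPM in the shoot and 94.8 to 149 CPM in the root (log2 -4.53, SE 0.209, adjusted p = 3.83e-33). For RPL5A (AT3G25520) the shoot libraries held 141 to 170.1 CPM and the root libraries 617 to 720.3 CPM (log2 -2.17, SE 0.109, adjusted p = 4.5e-31). RPL7 AT2G01250 (log2 -2.25, SE 0.116), RPL7a AT2G47610 (-2.16, SE 0.113) and RPL18 AT5G27850 (-2.70, SE 0.143) followed by p. The 2 members not called were both RPL4 genes. RPL4 AT3G09630 stood at 440 ± 21.2 CPM in the shoot and 412 ± 51.7 CPM in the root, and RPL4 AT5G02870 at 375 ± 10.6 CPM and 363 ± 53.1 CPM (SD, n = 3).

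**Figure D5:**
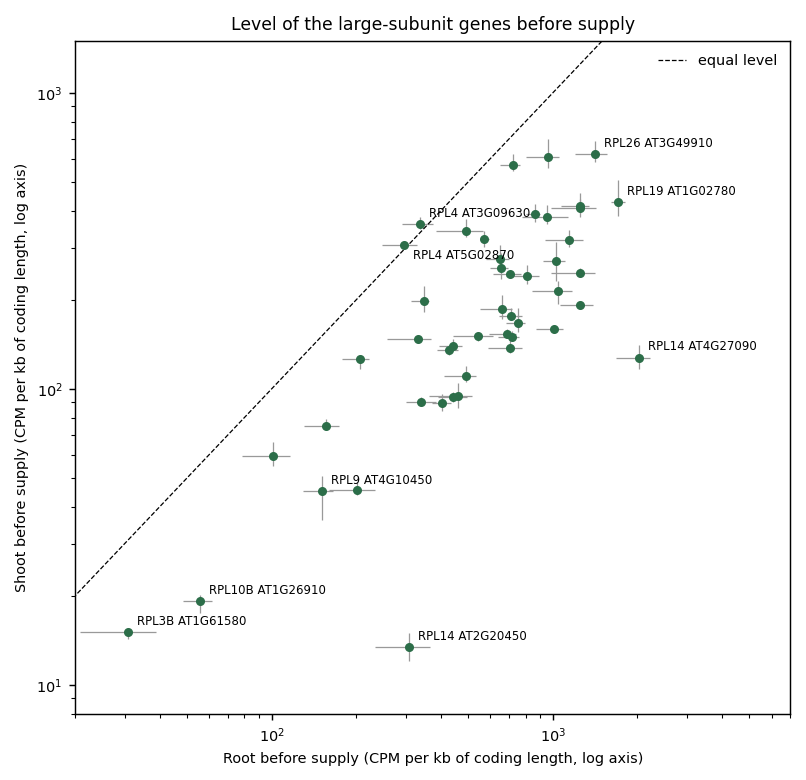
Level of 47 genes in shoot (vertical) and root (horizontal) at time 0, in CPM per kb of coding length on log axes, as the mean of 3 libraries with bars from the lowest to the highest. The dashed line marks equal levels. Both RPL4 genes lie at the line, both RPL14 genes lie farthest below it, and RPL8 AT3G51190, near absent in both, is left out.

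Per length of coding sequence, and with both organs scaled together, the levels of the members spread widely within each organ. In the shoot at time 0, RPL26 AT3G49910 was highest at 621 ± 60.0 CPM per kb, next to RPL8 AT2G18020 at 605 ± 79.2, which did not differ from it beyond their spread. The lowest besides RPL8 AT3G51190 were RPL14 AT2G20450 at 13.4 (12.0 to 15.0), RPL3B at 15.0 ± 0.641 and RPL10B at 19.2 ± 1.45 CPM per kb. In the root RPL14 AT4G27090 led at 2029 ± 301 CPM per kb, before RPL19 AT1G02780 at 1706 ± 98.5, with overlapping libraries, and RPL3B was the lowest besides RPL8 AT3G51190 at 30.8 ± 9.09 (SD, n = 3 each).

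The KCl control also differed from time 0. In the shoot 20 of 47 were higher at 120 min than at time 0 (1.56% of all genes) and none lower, with a median of log2 0.319. This count fell to 0 without replicate 2, 1 without replicate 3 and 9 without replicate 1, and was 8 with the nearly empty library kept. RPL6 AT1G18540 was higher by log2 0.47 (SE 0.076, adjusted p = 0.000144) and RPL23aA (AT2G39460) by 0.36 (SE 0.0758, adjusted p = 0.00433). The summed level in the shoot was 7340 CPM at time 0 and already 9240 CPM in KCl at 5 min (means). From 5 to 120 min the KCl means lay at 8579 to 10395 CPM, with 9114 CPM at 120 min. The shoot libraries of time 0 were also deeper than all KCl libraries of the shoot. The part of depth in this difference was not tested. In the root 4 members were higher (24% of all genes) and 19 lower (24%). Higher calls were thus rarer among the members than over all genes, and lower calls more frequent. The 4 were RPL3A (AT1G43170; log2 0.50, SE 0.117, adjusted p = 0.000469), RPL3B (AT1G61580; 0.60, SE 0.219, adjusted p = 0.0219), RPL4 AT3G09630 (0.45, SE 0.123, adjusted p = 0.00232) and RPL4 AT5G02870 (0.56, SE 0.13, adjusted p = 0.000427). Among the 19 were RPL7 AT3G13580 (-0.78, SE 0.144) and both RPL9 genes that share sequence, AT1G33140 (-1.31, SE 0.276) and AT1G33120 (-1.05, SE 0.273). Without replicate 1 in all groups 3 were higher and 3 lower.

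Other genes of the ribosome and of its assembly gave a frame for these values. In the shoot at 120 min 49 of 50 genes of the small (40S) subunit were called higher (median log2 0.81) and 67 of 70 other genes of the large subunit (median 0.803), against 19.1% of all genes. Of 19 factors of ribosome assembly 17 were called higher, with a median of 1.65. The list was made for the large subunit, but it also holds fibrillarin and NOP56 and NOP58 genes, which act on ribosomal RNA of both subunits. Among them SWA1 (AT2G47990), a nucleolar protein needed for gametophyte growth and known for processing the ribosomal RNA of the small subunit, rose by log2 2.54 (SE 0.101, adjusted p = 3.71e-23), PES (AT5G14520) by 1.78 (SE 0.0996) and the GTPase gene LSG1-2 (AT1G08410) by 1.65 (SE 0.0934). Of 21 genes of the large subunit of the plastid ribosome edgeR called 0 at 120 min, and 0 had an unadjusted p under 0.05, with a median of -0.0585. At 90 min 3 of these 21 were called higher, 20 changes were positive and the median was 0.485. In the root at 120 min 48 of 50 small-subunit genes, 63 of 71 other large-subunit genes, 17 of 19 assembly factors (1 was called lower) and 12 of 21 plastid genes were called higher, with medians of 0.573, 0.665, 0.682 and 0.492. Of 9 genes of the TOR pathway and of promoter-binding factors, 3 were called higher and 2 lower at 120 min in the shoot, and 1 higher and 3 lower in the root. The mRNA of the kinase TOR, a regulator of growth by nutrients, was called lower at 120 min in both organs (AT1G50030; log2 -0.41, SE 0.128, adjusted p = 0.00924 in the shoot and -0.88, SE 0.219, adjusted p = 0.00143 in the root). The gene of its target kinase S6K1 (AT3G08730) was called higher in both, by log2 1.02 (SE 0.0963) and 0.45 (SE 0.0838). As a check of the supply, the nitrite reductase gene NIR1 (AT2G15620) rose at 120 min by log2 4.61 (SE 0.293) in the shoot and 2.54 (SE 0.261) in the root.

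The changes of members with and without the searched promoter letters covered overlapping ranges. In the shoot at 120 min the 23 members with the telo-box had a median of log2 0.824, with a range of 0.347 to 1.62, and the 24 without it 0.756, with a range of 0.376 to 1.68. In the root at 60 min the medians were 0.594 and 0.589. The 3 members with none of the searched letters, RPL6 AT1G74050, RPL7 AT3G13580 and RPL23aA, had a median of 0.602 in the shoot and 0.62 in the root. Their range in the shoot was 0.392 to 0.622. The 44 members with any of the letters had a median of 0.829 in the shoot, with a range of 0.347 to 1.68. In the root the 45 such members had a median of 0.581. These medians are given as a description, with no test.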

How the data were processed

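RNA of shoots and roots was sequenced after selection of polyadenylated RNA, per the labels' protocols. For each gene the authors deposited raw read counts, made with TopHat2 and HTSeq on TAIR10, per the submitters' processing notes. The strand setting is not given in the sources used here. The 5 closing lines of each file name no gene and were left out. In the shoot their lines for reads at several places hold 0, and in the root such reads came to group means of up to 23.9%. The library with under 100000 gene counts was left out. edgeR 4.0.16 (R 4.3.3; TMM, filterByExpr at min.count 10 and min.total.count 15, quasi-likelihood test, 1 mean per group) was fitted to all kept libraries of an organ, or of both organs for organ differences, and p-values were adjusted by Benjamini-Hochberg over all genes tested and called under 0.05. SEs were taken from the log2 change and its F. Alternatives were DESeq2 1.42.0, RLE size factors, no filter, the replicate number as a block, fewer libraries and single libraries left out. Members and lists were chosen with earlier results of these data known. All members may be named. Values in each library were given for up to 6 members per organ with the smallest p over all times, up to 6 for the organ difference and up to 6 at time 0, with their paralogs, and up to 4 called genes per other list. The labels do not say that replicates are separate cultures, so p-values measure the spread between these libraries, which may be technical. Promoters and coding lengths came from TAIR10.1. The values of 1 member are counted in the totals and not reported by name here.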

Additional observations from a re-analysis of the deposited data

Results flagged for a closer look

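The change with N (log2, N against KCl) differed between shoot and root in 44 of 48 members over all times together, by edgeR's quasi-likelihood test of the difference (36% of all genes). This count was 30 without the root libraries of 10 and 15 min, 9 without replicate 3 in all groups and 12 without replicate 1. At 120 min 15 members differed, each with the larger change in the shoot (9.43% of all genes), and 3 were called without replicate 3 and 5 without replicate 1. The differences on the log2 scale were 1.33 for RPL3B, 1.04 for RPL10B, 0.91 for RPL8 AT4G36130, 0.78 for RPL4 AT5G02870, 0.76 for RPL10a AT5G22440, 0.71 for RPL12 AT5G60670, 0.70 for RPL10C, 0.69 for RPL4 AT3G09630, 0.68 for RPL9 AT4G10450, 0.59 for RPL5A, 0.54 for RPL13a AT5G48760, 0.53 for RPL13 AT3G49010, 0.50 for RPL7 AT2G44120, 0.49 for RPL3A and 0.44 for RPL7a AT2G47610. Organ and the handling of reads at several places coincide and cannot be told apart. The 48 include RPL8 AT3G51190, which is near absent and was not tested in the shoot alone.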

How the results depend on the processing

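Counted over each called member under each alternative of its comparison, 5803 calls passed again and 973 no longer passed, and outside the tests over all times no called member turned its direction. The labels do not say that replicate numbers pair the libraries, and the values were mixed. Deviations of same-numbered libraries correlated over 0.1 in 13 of 27 root pairs (median 0.0875) and 7 of 26 shoot pairs (median -0.0381). With the replicate block 47 members were called in the shoot at 120 min, 40 in the root at 120 min and 44 for the organ difference over all times, and the 1 member called in the shoot at 15 min was lost (0 called). It was also 0 without the filter, with the nearly empty library kept, with only the libraries compared, without any single replicate and without KCl replicate 1. Without single replicates 10 to 29 members were called in the shoot at 45 min, and 0 to 9 for KCl at 120 min against time 0, where 8 were called with the nearly empty library kept. In the root, DESeq2 called 1 at 5 min and 1 at 90 min. At 10 min 0 were called with only the libraries compared, and 0 to 16 without single replicates, of which the 16 without replicate 2 were 6 higher and 10 lower, so that the balance turned. At 15 min 11 were called without libraries with over 30% of reads at several places, 38 with only the libraries compared, and 12 to 24 without single replicates or libraries. At 20 min 1 was called (lower) with only the libraries compared. At 45 min 15 were called in that fit, and 0 to 37 without single replicates or libraries. At 60 min 28 were called in that fit and 28 without the libraries over 30%, and 3 to 46 without single replicates or libraries. At 90 min 1 was called with RLE size factors, 1 without the root libraries of 10 and 15 min, 1 without those over 30%, and 0 to 1 without single replicates. Without single replicates or libraries 14 to 43 were called at 120 min, 0 to 2 for 120 against 30 min, and 6 to 20 for KCl at 120 min against time 0. For the organ difference these were 9 to 37 over all times and 3 to 10 at 120 min. The cause was not tested. A test over all times has no direction, and the direction at its smallest p turned in part: for the organ difference 19 were higher and 25 lower in the main result, and 27 and 3 without the root libraries of 10 and 15 min. That such turns are not counted as reversals was decided after the data were seen, as was leaving RPL8 AT3G51190 out of the comparison of level and change. Leaving out the libraries of 10 and 15 min or those over 30%, and single libraries of the shoot at 15 min and the root at 15, 45 and 120 min, was chosen after seeing the data. Depth limits only RPL8 AT3G51190 among the members.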
